A study of Bos taurus with 4 samples.

Results

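The mRNAs of 10 genes that are transcribed almost only in the growing oocyte were followed into bovine blastocysts. The genes were GDF9, BMP15, ZAR1, NLRP5, OOEP, ZP2, ZP3, ZP4, H1FOO and NPM2. They were chosen by symbol. Every probe whose symbol in the array annotation is 1 of these 10 names was taken, which gave 15 of 43794 probes, for 9 of the 10 genes. NPM2, a histone chaperone of the egg, had 0 probes under its name and was not analysed here. Current symbols and synonyms led to 0 further probes. H1FOO is now named H1-8. The probe sequences and the genome positions of the probes were not used here, so which transcript form a probe reads is not known.

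The embryos were made by in vitro maturation, fertilisation and culture from ovaries of slaughtered cattle. Semen came from 4 bulls, each collected at 12 and at 16 months of age, the ages around puberty. The study asked whether the bull's age shows in the transcriptome of his embryos. RNA of blastocysts sired with 16-month semen and RNA of blastocysts sired with 12-month semen shared each of 4 two-channel arrays. The 16-month RNA was in Cy3 on arrays 1 and 2 and in Cy5 on arrays 3 and 4, with the 12-month RNA in the other dye. The labels call the arrays biological replicates, without saying which bull stands behind which array. The eggs came from slaughterhouse ovaries in both groups, and the labels name no genotype or breed.

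A growing oocyte fills its cytoplasm with mRNA and protein that must serve until the embryo starts its own transcription. Most of this maternal mRNA is then degraded, in cattle largely before the blastocyst forms. Zona pellucida proteins form the coat that sperm bind, secreted growth factors act on the cumulus cells, and proteins such as NLRP5, OOEP and ZAR1 carry the early embryo through its first divisions.

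Blastocyst markers were detected in the RNA. Of 19 genes listed as blastocyst markers, 17 had a probe, and the brightest probe of each was above background in all 8 channel signals (4 arrays in 2 channels). These include the keratins KRT8 and KRT18 of the trophectoderm and the pluripotency factors POU5F1 and NANOG. Among all probes, counted singly, 45.5% were above background in all 8. The background was set by the negative control spots named (-)3xSLv1, 153 on arrays 1 to 3 and 152 measured on array 4. A signal counted as above background when its spot intensity, minus the local background, exceeded the 95th percentile of these spots on the same array and in the same channel. That level was 62.4 to 95.4 intensity units in Cy5 and 224.8 to 268.2 in Cy3, so signals are given below as multiples of their own level. The level sets the passing share at about 5% for these control spots only. How often a probe of another sequence would pass without its target is not known. Between 62.7% and 72.3% of all probes passed per array and channel. The blastocyst markers differed widely in brightness. KRT8 read from 84.9 to 924 times its level, but CDX2 only from 1.25 to 1.97 times.

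Most oocyte-specific probes lay at the edge of detection. Of their 118 measured channel signals, 73 were above the level, 34 of 59 in 16-month RNA and 39 of 59 in 12-month RNA. The signals ran from 0.625 to 2.4 times the level, with a median of 1.05. Of the 15 probes, 12 were above the level in at least 4 of 8 signals, against 70.8% of all probes, and 2 were above it in all 8, against 45.5% of all probes. The 2 were the probe of OOEP and 1 of 3 probes of ZP3. A description of the whole set as remaining in blastocysts thus goes beyond these signals. GDF9 and ZAR1 were above the level in 0 of 8. In bulk RNA, fewer cells with a transcript and less of it per cell cannot be told apart.

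**Figure D1:**
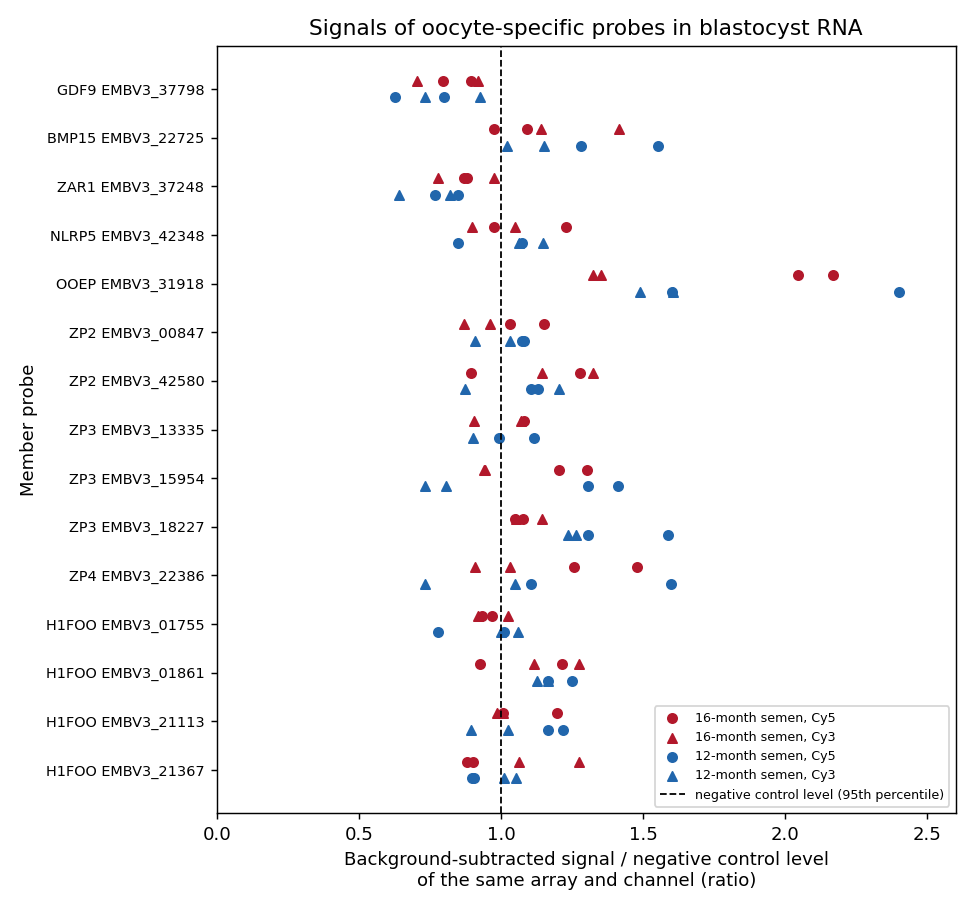
Background-subtracted signal of each of the 15 oocyte-specific probes as a multiple of the negative control level of the same array and channel (horizontal axis, ratio), 1 point per array, with 16-month semen above 12-month semen in each row. Circles are Cy5 and triangles Cy3, and the dashed line is the level. The highest point is OOEP at 2.4, and all points of GDF9 and ZAR1 lie left of the line.

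**Figure D2:**
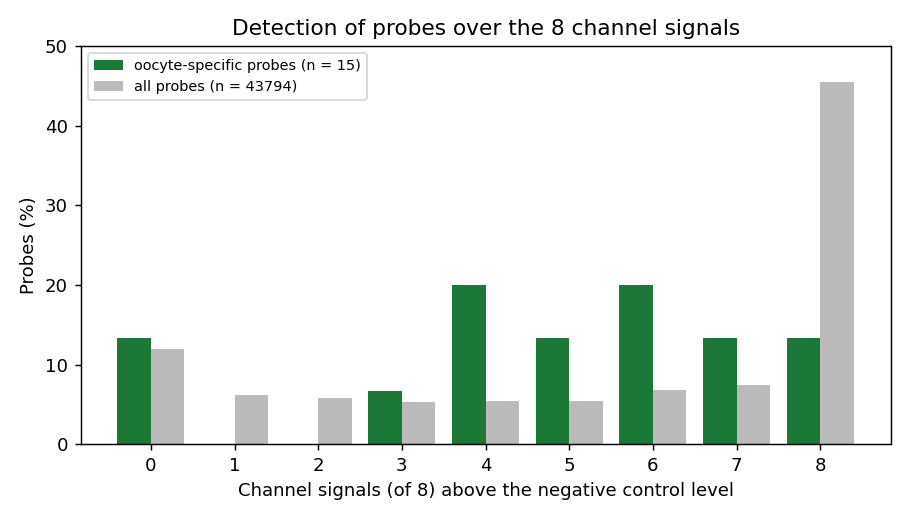
Share of probes (vertical axis, percent) by the number of their 8 channel signals above the negative control level (horizontal axis), for the 15 oocyte-specific probes and all 43794 probes. All probes pile up at 8 signals (45.5%), where 2 of the 15 oocyte-specific probes stand.

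OOEP gave the clearest signal. It encodes a small protein of the subcortical maternal complex, an assembly under the oocyte membrane that the cleaving mouse embryo needs. Its probe EMBV3_31918 read 1.32, 1.35, 2.17 and 2.05 times the level in 16-month RNA on arrays 1 to 4, and 1.60, 2.40, 1.49 and 1.61 times in 12-month RNA. As intensities these were 355, 357, 207 and 135 in 16-month RNA and 100, 204, 336 and 361 in 12-month RNA. The ages overlapped, and in 16-month RNA both Cy5 signals (arrays 3 and 4) were further above their level than both Cy3 signals. OOEP stayed above the highest negative control spot in all 8 signals, the only member probe of the 15 to do so. Of all probes, 32.9% did so.

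The probe of NLRP5 (EMBV3_42348), another member of that complex, was above the level in 2 of 4 signals of 16-month RNA and 3 of 4 of 12-month RNA. It read 1.05, 0.896, 0.975 and 1.23 times the level in 16-month RNA on arrays 1 to 4, and 1.07, 0.847, 1.06 and 1.15 times in 12-month RNA. The ages overlapped almost fully, and array 2 was below the level at both. ZAR1, an RNA-binding protein that guards stored maternal mRNA, stayed below the level everywhere, from 0.779 to 0.976 times in 16-month RNA and from 0.641 to 0.847 times in 12-month RNA.

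The secreted growth factors differed in detection. GDF9, a TGF-beta family protein that drives cumulus expansion, read 0.705, 0.919, 0.797 and 0.894 times the level in 16-month RNA on arrays 1 to 4 and 0.625, 0.80, 0.926 and 0.734 times in 12-month RNA. All 8 signals were below the level, and the ages overlapped. BMP15, its close relative and partner, was above the level in 3 of 4 signals of 16-month RNA and in 4 of 4 of 12-month RNA. BMP15 read 1.14, 1.41, 0.975 and 1.09 times the level in 16-month RNA on arrays 1 to 4, and 1.28, 1.55, 1.02 and 1.15 times in 12-month RNA. Array 2 was the brightest at both ages, and the ages overlapped.

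Zona pellucida genes encode the glycoproteins of the coat around the egg, in which ZP3 and ZP4 are filament subunits and ZP2 takes part in sperm binding. The steadiest of the 6 zona probes was EMBV3_18227 of ZP3. It read 1.14, 1.05, 1.05 and 1.08 times the level in 16-month RNA on arrays 1 to 4 and 1.59, 1.31, 1.26 and 1.24 times in 12-month RNA. As intensities these were 307, 278, 100 and 71 in 16-month RNA and 99, 111, 285 and 278 in 12-month RNA. Relative to their levels, all 4 signals of 12-month RNA exceeded all 4 of 16-month RNA. ZP4 was above the level in 3 of 4 signals at each age and read from 0.908 to 1.48 times in 16-month RNA and from 0.734 to 1.60 times in 12-month RNA. The ZP2 probe EMBV3_42580 was above the level in 3 of 4 signals at each age, and the ZP2 probe EMBV3_00847 in 2 of 4 of 16-month RNA and 3 of 4 of 12-month RNA.

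The remaining ZP3 probes followed the dye or stayed low. EMBV3_15954 was above the level in 4 of 4 Cy5 signals and in 0 of 4 Cy3 signals, which came to 2 of 4 at each age. EMBV3_13335 was above it in 3 of 6 signals, since the scanner software marked its spot on array 4 as ignored. H1FOO, the linker histone of the oocyte that somatic H1 replaces after fertilisation, showed the same kind of split. Its probe EMBV3_21367 was above the level in 4 of 4 Cy3 signals and 0 of 4 Cy5 signals. The other H1FOO probes, EMBV3_01861, EMBV3_21113 and EMBV3_01755, were above it in 7, 6 and 4 of 8. Such a complete split by dye was seen in 2 of the 12 oocyte-specific probes tested, against 1.04% of all probes tested. A probe above the level in all 8 signals cannot split. That was so for 19928 of the 30986 probes tested but for only 2 of the 12, so the shares are not of like probes.

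No oocyte-specific probe passed the test between the bull ages. The tested value was the log2 ratio of 12 over 16 months. It is positive where the probe was brighter with 12-month semen and negative where it was brighter with 16-month semen. On arrays 3 and 4 the sign of the Cy5 over Cy3 ratio was turned. The 12 probes above the level in at least 4 of 8 signals were tested with limma among 30986 such probes, and 0 passed an adjusted p of 0.05, against 0% of all probes tested (0 of 30986). The smallest adjusted p of an oocyte-specific probe was 0.969. At an unadjusted p under 0.05 stood 1 of the 12, against 4.12% of all probes tested. It was higher with 12-month semen (background 2.16%), and 0 were lower with 12-month semen (background 1.96%). The fitted log2 ratios ran from -0.19 to 0.33, with 8 probes higher and 4 lower with 12-month semen and a median of 0.031, against 0.0010 over all probes tested. Their median absolute log2 ratio was 0.073, against 0.096 over all probes tested. The 95% confidence intervals had a median half-width of 0.27, and none reached beyond 0.59 in size. At signals this close to background the offset of 50 added before taking logs pulls ratios towards 0, so these values understate a change.

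**Figure D3:**
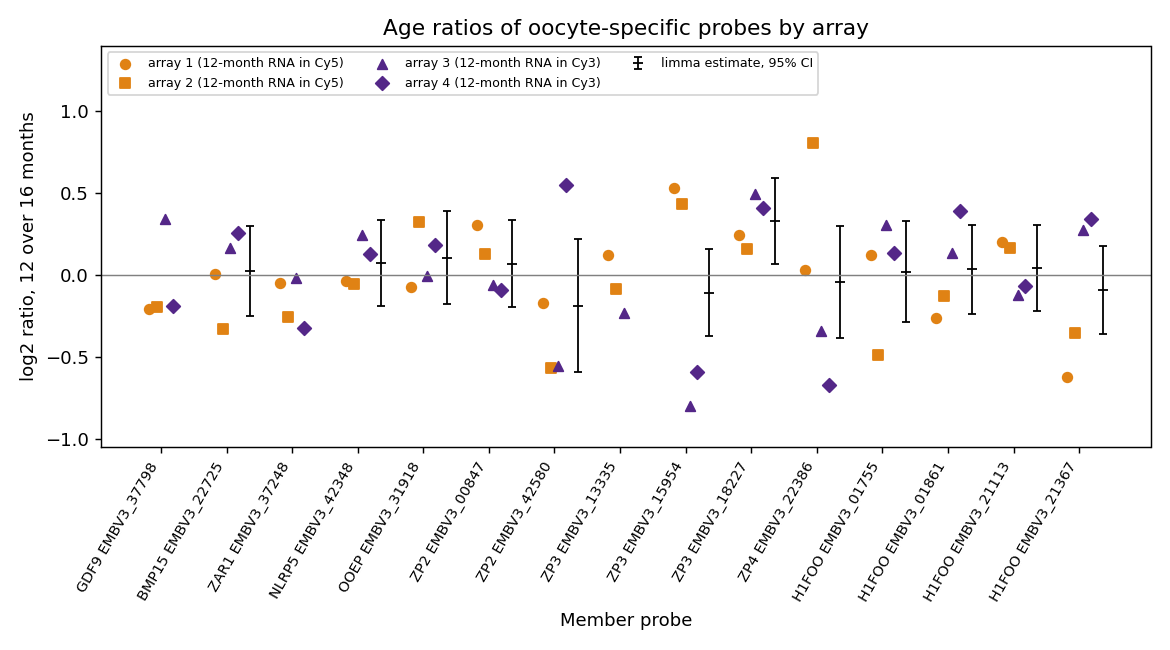
Log2 ratio of 12 over 16 months (vertical axis) of each oocyte-specific probe on arrays 1 to 4, with the limma estimate and its 95% confidence interval for the 12 probes tested. Orange marks arrays with the 12-month RNA in Cy5 and purple those with it in Cy3. The probe EMBV3_18227 of ZP3 has all 4 arrays above 0, and for several probes the colours lie on opposite sides of 0.

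The probe that stood out was EMBV3_18227 of ZP3. Its log2 ratio of 12 over 16 months was 0.24, 0.16, 0.50 and 0.41 on arrays 1 to 4, a mean of 0.33 ± 0.15 (SD, n = 4), positive on 4 of 4 arrays. The limma interval ran from 0.067 to 0.59 with an unadjusted p of 0.0194 and an adjusted p of 0.969, so it did not pass. Normalised channel values of the ages did not overlap for this 1 probe of the 12, against 0.954% of all probes tested, or 0.395% with 12 months above 16. From mean instead of median pixel intensities the log2 ratio was 0.023, with the ignored spots kept in the background fit it was 0.20, and with an offset of 1 it was 0.50. The further ZP3 probes had negative means but no clear direction. EMBV3_15954 stood at -0.11 ± 0.69 (SD, n = 4), with a limma interval from -0.37 to 0.16. EMBV3_13335, which was not among the probes tested, stood at -0.062 ± 0.18 over the 3 arrays measured. In a fit without the brightness filter it stood at -0.10, with an interval from -0.43 to 0.23. The number of oocyte-specific probes with an unadjusted p under 0.05 was 0 without array 1, 0 without array 2, 1 without array 3, 2 without array 4 and 0 from mean pixel intensities.

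Where a gene had several probes, they did not agree on a direction. The 4 H1FOO probes had mean log2 ratios of 0.022 ± 0.35 (EMBV3_01755), 0.035 ± 0.29 (EMBV3_01861), 0.046 ± 0.16 (EMBV3_21113) and -0.089 ± 0.47 (EMBV3_21367). The ZP2 probes stood at 0.072 ± 0.18 (EMBV3_00847) and -0.19 ± 0.52 (EMBV3_42580). The second of these read -0.17, -0.57, -0.56 and 0.55 on arrays 1 to 4, so array 4 went against the other 3 (SD, n = 4 for each probe).

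Among genes with a single probe, those tested had mean ratios smaller in size than their SD over arrays. Such SDs, here and elsewhere, also hold the dye difference, which the fit takes out. OOEP, the brightest against its background, had log2 ratios of -0.070, 0.32, -0.0053 and 0.18 on arrays 1 to 4 and a mean of 0.11 ± 0.18, with an interval from -0.18 to 0.39. NLRP5 stood at 0.074 ± 0.14, BMP15 at 0.027 ± 0.26 and ZP4 at -0.042 ± 0.64 (SD, n = 4 for each). ZP4 ranged from -0.67 on array 4 to 0.81 on array 2. BMP15 read 0.0073, -0.33, 0.17 and 0.26 on arrays 1 to 4, and NLRP5 -0.033, -0.050, 0.25 and 0.13, so neither kept 1 sign. For ZAR1 the log2 ratios were -0.045, -0.25, -0.015 and -0.32, but both ages were below the level on every array, so no fold is drawn from them. The same holds for GDF9.

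The signs of the ratios often followed the dye orientation. Of the 12 probes tested, 7 had 1 sign on arrays 1 and 2 and the opposite sign on arrays 3 and 4, against 20.2% of all probes tested. They were the probes of NLRP5 and ZP4, EMBV3_00847 of ZP2, EMBV3_15954 of ZP3, and EMBV3_01861, EMBV3_21113 and EMBV3_21367 of H1FOO. For EMBV3_15954 the log2 ratios were 0.53, 0.44, -0.80 and -0.59 on arrays 1 to 4. With dyes exchanged between these pairs of arrays, such a probe was brighter in the same dye on all 4 arrays. Only EMBV3_18227 of ZP3 had the same sign on all 4 arrays, 1 of 12 tested, against 10.1% of all tested probes measured on every array (4.76% higher and 5.35% lower with 12-month semen).

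By array, the medians of the oocyte-specific probes lay close to 0. Their median log2 ratio was 0.020, 0.038, 0.066 and 0.16 on arrays 1 to 4, and the median over all probes tested was 0.0020, 0.015, -0.014 and -0.0041. Of the 12, those higher with 12-month semen numbered 7, 6, 6 and 8. Their median absolute log2 ratio was 0.189, 0.326, 0.264 and 0.301, against 0.192, 0.183, 0.248 and 0.177 over all probes tested, so on arrays 2 and 4 the single ratios of these probes lay further from 0.

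Genes with ratios most like those of EMBV3_18227 were sought among 11298 genes by Euclidean distance over the 4 log2 ratios. MRPL20 (distance 0.058), CLDN1 (0.13) and PECR (0.14) came closest.

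Other transcripts that oocytes store were looked up from a list of 41 genes, of which 33 had a probe and 26 a tested one. Of these 26, 14 were above the level in all 8 channel signals by their brightest probe. Of all 30986 probes tested, counted singly, 19928 were, so this count does not set the list apart. DPPA3, which in mouse protects the methylation of the maternal genome, read from 34 to 109 times its level by its brightest probe. A further DPPA3 probe read from 1.14 to 3.07 times. GTSF1, a partner of piRNA-bound proteins, read from 16.4 to 46.4 times. DPPA3 and GTSF1 are not particular to the oocyte. KPNA7, an importin of oocytes and early embryos, read from 5.25 to 166 times by its brightest probe, and 2 further KPNA7 probes stayed under 2 times their level.

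Between the ages, 0 of the 26 passed the test over all probes, 9 were higher and 17 lower with 12-month semen, and the median log2 ratio was -0.060, against 0.0012 over 11960 genes, of which 50.4% were higher with 12-month semen. At an unadjusted p under 0.05 in limma stood 1 of the 26, against 4.12% of all probes tested, so this count does not set the list apart. It was BTG4, which in mouse links mRNAs to the deadenylase that clears maternal transcripts. BTG4 was above the level in 4 of 4 signals of 16-month RNA and 2 of 4 of 12-month RNA. Its log2 ratio of 12 over 16 months was -1.28, -1.09, -0.15 and -0.43 on arrays 1 to 4, a mean of -0.74 ± 0.54 (SD, n = 4), with an unadjusted p of 0.000179 and an adjusted p of 0.969 in limma. The adjusted p of BTG4 was 0.0228 without array 3 and 0.0288 without array 4, which passed, and 1.00 without array 1 or array 2, with log2 ratios from -0.81 to -0.67. Among further probes of the listed genes, those not used to represent their gene, an unadjusted p under 0.05 was also found for DPPA3 (-0.34), LHX8 (-0.30) and, in the other direction, KIT (0.46 in the fit, measured on 3 arrays). The brightest probe of DPPA3 stood at -0.13 (unadjusted p 0.32 in limma). That of KIT stood at -0.17, against the sign of its further probe. Among the representing probes lower with 12-month semen, the next smallest p after BTG4 belonged to ZAR1L and LHX8. ZAR1L, a relative of ZAR1, stood at -0.25 and LHX8, a transcription factor of early oocytes, at -0.30. On the other side stood BMP6 at 0.20, FBXO43 at 0.24 and OOSP2, an oocyte-secreted protein, at 0.10, none of these 3 probes under an unadjusted p of 0.05. TLE6, also of the subcortical maternal complex, stood at -0.27 with an interval from -0.59 to 0.053.

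**Figure D4:**
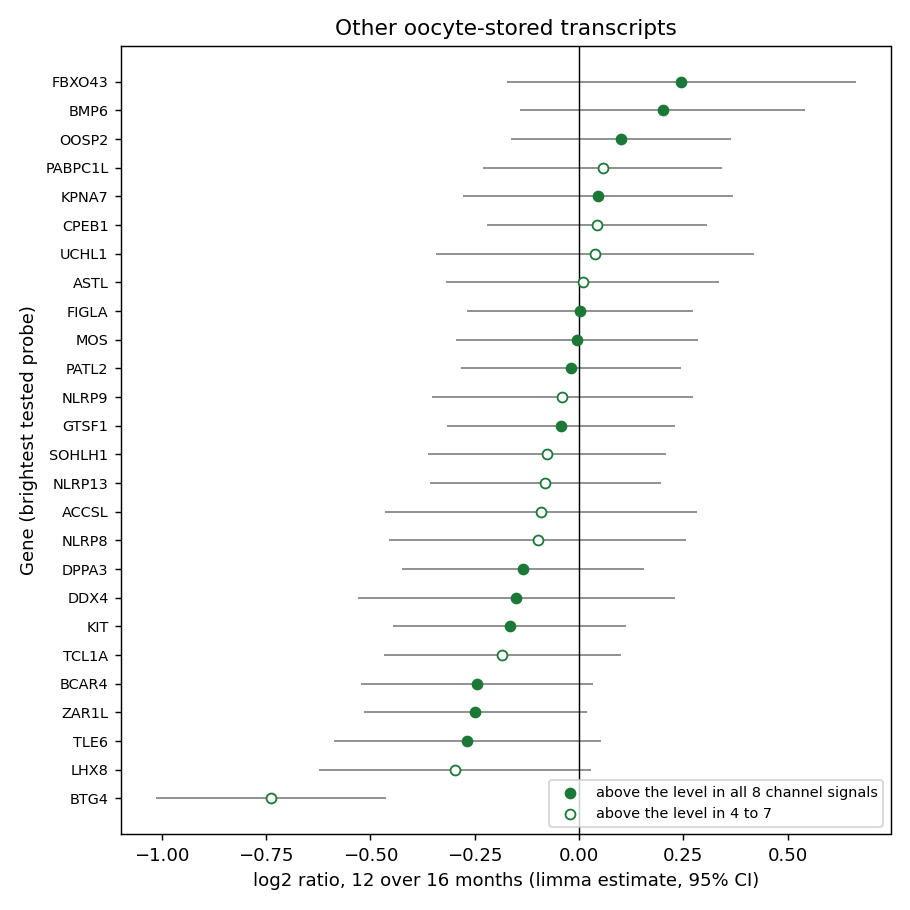
Log2 ratio of 12 over 16 months (horizontal axis, limma estimate with 95% confidence interval) of 26 other oocyte-stored transcripts, each by its brightest tested probe. Filled points were above the negative control level in all 8 channel signals and open points in 4 to 7. BTG4 lies lowest at -0.74, and the intervals of the other 25 genes include 0.

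The receptors and SMAD proteins that GDF9 and BMP15 act through varied in detection. Of 12 listed genes, 11 were tested and 8 were above the level in all 8 channel signals by their brightest probe. Of all 30986 probes tested, counted singly and not by the brightest of a gene, 19928 were. SMAD3 was above it in 6, SMAD9 in 5, TGFBR1 in 4 and SMAD5 in 0 of 8. Of the 11, 6 were higher and 5 lower with 12-month semen, 0 passed the test, and the median log2 ratio was 0.056. The receptor genes BMPR1A and BMPR2 stood at 0.22 and 0.19 and SMAD4 at 0.21, while SMAD9 stood at -0.25, TGFBR1 at -0.12 and ACVR1 at -0.10. These are the brightest probes, and further tested probes did not always share their sign. For SMAD4 such probes stood at -0.20 (EMBV3_36471) and -0.013 (EMBV3_34652), for BMPR2 at -0.0021 and for BMPR1A at 0.055. Among somatic relatives of NPM2 and H1FOO, 4 of 9 genes had a tested probe and 0 passed. NPM1 stood at -0.17, NPM3 at 0.10, H1-2 at 0.49 ± 1.34 and H1-3 at 0.076 ± 0.87 (SD, n = 4).

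Cells around the egg and sperm can also leave RNA in an embryo sample. Of 16 cumulus and granulosa genes, 15 had a probe and 8 a tested one. By their brightest probe, 5 of these, PTGS2, STAR, CYP19A1, GREM1 and INHBA, were above the level in all 8 signals. That compares with 19928 of all 30986 probes tested, counted singly. PTGS2, which the blastocyst list also holds, read from 4.77 to 36 times its level and STAR from 1.45 to 9.38 times. AMH, HAS2 and AREG were above the level in 0 of 8 signals. The summed normalised intensity of the 8 was 2613 to 4978 in 16-month RNA and 2150 to 6373 in 12-month RNA. Among the 8, the log2 ratio was positive for 7 and negative for 1, and its median was 0.095. HSD3B1, a steroid enzyme, stood at 0.55 ± 1.08, aromatase (CYP19A1) at 0.10, PTX3 of the cumulus matrix at 0.11 and STAR, a cholesterol carrier, at -0.43 ± 0.41 (SD, n = 4). Of 12 sperm and spermatid genes, 5 were tested, with sums of 755 to 804 in 16-month RNA and 726 to 1098 in 12-month RNA. Their signals lay near the level, from 0.80 times (ODF1) to 2.48 times (DKKL1), and 3 of the 5 were above it in all 8. The offset of 50 is part of every intensity in such sums, so at signals this dim a sum does not measure sperm RNA. DKKL1 stood at 0.29, PRM1 at 0.22 and TNP1 at 0.11, and ODF1 at -0.075 and TNP2 at -0.042. The blastocyst list had a sum of 107610 to 168729 in 16-month RNA and 76605 to 157570 in 12-month RNA, with PAG12 at 0.47 ± 0.70, IFNT at 0.43 ± 1.01 and PDGFRA at 0.26 on the higher side and KRT18 at -0.20, POU5F1 at -0.23 and KRT8 at -0.084 on the lower (SD, n = 4). An unadjusted p under 0.05 was found for 2 of the 17 blastocyst genes (PAG12 and IFNT), 1 of the 8 cumulus and granulosa genes (STAR) and 0 of the 5 sperm genes, against 4.12% of all probes tested. The further STAR probes, EMBV3_18125 at 0.11 and EMBV3_20036 at -0.20, were not under it and differed in sign. A further probe of PTGS2 (0.39) was under it too. The brightest PTGS2 probe, at 0.17, and EMBV3_16391, at 0.15, were not. None of these lists had a member past the adjusted threshold over the 4 arrays. With 1 array left out, HSD3B1 passed without array 3 (1.07, adjusted p 0.00517 in limma) but stood at 0.041 without array 4. H1-2 (1.26, adjusted p 0.00472) and PAG12 (0.76, adjusted p 0.0307) passed without array 3, and STAR (-0.60, adjusted p 0.0466) passed without array 4. The levels of these lists are given beside the oocyte-specific ratios, and their part in the oocyte-specific ratios was not tested.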

How the data were processed

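Per the file headers, the deposited scanner files give the intensity of each spot and its surroundings at 532 nm (Cy3) and 635 nm (Cy5), with no background subtracted. Per the labels' protocols, RNA was amplified before it was labelled chemically, which can shift relative abundances. The submitters' processing notes name limma. The authors' deposited log2 table follows Cy5 over Cy3 (r from 0.986 to 0.994 with the ratios computed here), and no source used here states its background step.

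Of 45220 spots per array, 43794 were probes. Spots marked as ignored (13, 10, 64 and 818 on arrays 1 to 4) were removed before normexp was fitted to median intensities with an offset of 50. Loess within arrays followed, with control spots at weight 0. Kept in, the ignored spots moved the background mean fitted in Cy3 of array 3 to -237, against 122 without them, and narrowed that array's ratios (SD 0.25, against 0.40). This choice was made after seeing the files. All 4 arrays are areas of 1 slide, per the file names. The tests used limma 3.58.1 in R 4.3.3 with coefficients for age and dye, two-sided, Benjamini-Hochberg over 30986 probes. No other covariate or batch is known here, and p-values measure only the spread between these arrays, whose number limits the precision.

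Symbols came from the platform annotation, which names 1 gene for 21790 probes, more than 1 for 0 probes and no gene for 22004. Through the RefSeq table of ARS-UCD2.0, 20068 symbols were current, 1644 were updated and 78 had no match. In lists, a gene is its brightest tested probe measured on all arrays. All member probes are given, and of each other list the 3 genes with the smallest p in each direction, plus those other oocyte genes under an unadjusted p of 0.05. TLE6, DPPA3, GTSF1, KPNA7, KIT, SMAD3, SMAD5, PTGS2, GREM1, INHBA, AMH, HAS2 and AREG were named after their values were seen. The members and lists were chosen with earlier results of these data known. The fit was tested on simulated data.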

Additional observations from a re-analysis of the deposited data

Results flagged for a closer look

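GDF9 had 1 array far from the others. Its log2 ratio of 12 over 16 months was 0.34 on array 3, while the other arrays lay between -0.21 and -0.19. All 8 GDF9 signals were below the negative control level, so no direction is drawn from it. Of 45 probes tested in this way, chance flags about 1 in 20.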

How the results depend on the processing

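Detection depended on the level chosen. Of the 15 oocyte-specific probes, 12 were above the 95th percentile of the negative controls in at least 4 signals. At the 99th percentile 5 were, and at the highest control spot 1, OOEP. Of all probes, 70.8%, 54.5% and 46.3% were above these 3 levels in at least 4 signals. The count of oocyte-specific probes called was 0 under every alternative run. Over all probes it was 0 except without array 3 (44) and without array 4 (385). In every fit without 1 array, the single array left in its dye orientation is taken to vary like the others. Probes with an unadjusted p under 0.05 in limma numbered 1277 of 30986 tested. When only the 19928 probes above the level in all 8 signals were tested, 763 were under it. With ignored spots kept in the background fit the number was 1799, and with 1 array left out 517 to 5074. Keeping the ignored spots as an alternative was chosen after seeing the data, as were the offset of 1 and the median without BTG4. Of the 1277, 52.5% were higher with 12-month semen, against 35.2% of such probes after median centring in place of loess. Directions of log2 ratios of 12 over 16 months turned for some probes, and the cause was not tested. From mean pixel intensities they were -0.096 for BMP15, -0.084 for CYP19A1, 0.0037 for GDF9, -0.059 for H1FOO EMBV3_21113, 0.092 for KRT8, -0.0092 for OOEP, -0.043 for ZP2 EMBV3_00847 and 0.024 for ZP4. With ignored spots kept they were -0.025 for BMP15, -0.049 for H1FOO EMBV3_01755, -0.020 for H1FOO EMBV3_01861, 0.12 for ZP3 EMBV3_15954 and 0.099 for ZP4. Without background correction they were -0.0037 for H1FOO EMBV3_01861 and 0.082 for ZP3 EMBV3_15954, and after median centring 0.065 for GDF9. With 1 array left out, 4 named genes outside the oocyte-specific set passed without array 3 (BTG4, H1-2, HSD3B1 and PAG12) and 2 without array 4 (BTG4 and STAR). HSD3B1 ranged from 0.041 to 1.07, PAG12 from 0.19 to 0.76 and STAR from -0.60 to -0.26, and the following ranges crossed 0. The ranges ran for ACVR1 from -0.21 to 0.0034, BMP15 from -0.057 to 0.11, FBXO43 from -0.058 to 0.55, GDF9 from -0.19 to 0.073 and H1-2 from -0.28 to 1.26. Further ranges were for H1-3 from -0.40 to 0.56, H1FOO EMBV3_01755 from -0.13 to 0.17, H1FOO EMBV3_01861 from -0.028 to 0.099, KRT8 from -0.19 to 0.025 and NPM3 from -0.0072 to 0.21. Others ran for ODF1 from -0.20 to 0.052, POU5F1 from -0.48 to 0.011, PRM1 from -0.081 to 0.52, TNP1 from -0.15 to 0.36 and TNP2 from -0.10 to 0.016. There were also ranges for ZP2 EMBV3_42580 from -0.46 to 0.091, ZP3 EMBV3_13335 from -0.16 to 0.020 and ZP4 from -0.24 to 0.15. Of the 15 oocyte-specific probes, 15 kept their direction in the authors' deposited table. The median of the other oocyte transcripts was -0.060, -0.043 without BTG4, and from -0.076 to -0.019 with 1 array left out.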
